A study of Mus musculus with 2 samples.

Results

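The class I peptide loading machinery was examined as 9 genes, chosen by their roles in light chain supply, peptide transport, trimming, loading and transcriptional control, with earlier results of these data known. They were B2m, Tap1, Tap2, Tapbp, Tapbpl, Erap1, Nlrc5, Pdia3 and Canx, and each matched 1 of the 26082 genes in the deposited tables. FAPs, or fibro-adipogenic progenitors, are stromal cells resident in muscle with the ability to turn into fat cells or fibroblasts. Wild-type FAPs, which the study isolated from muscle of C57BL/6 mice by cell sorting, were transfected with plasmids overexpressing TGFBR3, a co-receptor for TGF-β ligands, or with the vector, to ask which genes changed with TGFBR3. Cells of both groups received adipogenic induction medium based on DMEM, to which insulin (10 μg/ml), 20% FBS, IBMX (0.5 mM) and dexamethasone (0.25 μM) had been added. Each group is 1 library, and how many animals or cultures it came from is not given in the sources used here.

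MHC class I molecules present peptides from inside the cell to cytotoxic T cells, and most cells make them, fibroblasts included. Peptides cut by the proteasome are carried into the endoplasmic reticulum (ER) by the TAP1–TAP2 transporter, are trimmed there by ERAP1 and are loaded onto a heavy chain paired with β2-microglobulin, with the help of tapasin and general ER chaperones. Interferons are known to raise the transcription of many of these genes, in part through NLRC5, which works at class I promoters.

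All 9 genes had higher FPKM values in the library labelled TGFBR3 overexpression, by very different amounts, although Pdia3 was lower once the libraries were centred on the median gene. FPKM scales the count of a gene by its length and by the size of the library. Each log2 difference is the log2 ratio of (FPKM + 1), TGFBR3 overexpression over vector control, in which 1 is close to 2-fold for a well expressed gene. Where values come in pairs, the library labelled TGFBR3 overexpression is given first. Nlrc5 (1.79), Erap1 (1.46), B2m (1.36) and Tap1 (1.31) were past 2-fold. Tapbp was at 0.98, Tap2 at 0.65, Tapbpl at 0.44, Canx at 0.40 and Pdia3 at 0.08. Thus the transcripts of the transactivator, the trimming enzyme, the light chain and a transporter subunit passed 2-fold. Those of the other transporter subunit, the peptide editors and general ER chaperones did not, although Tapbp was only just short of it. With a trend of the ratios over GC content removed, Tapbp passed 2-fold (1.06) and B2m did not (0.93), so the side of 2-fold on which Tapbp and B2m lay depended on the processing.

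Of the 9 members, 4 were at least 2-fold higher, against 3.14% of the 11213 genes whose FPKM averaged 1 or more and 1.41% of all genes. None of the members was 2-fold lower, against 1.03% and 0.475%, respectively. The same 4 members had their whole counting interval past 2-fold, which was so for 2.37% of the 11213 genes. The median over the members was 0.98, and that over the 11213 genes was 0.14. Counting intervals (95%, exact Clopper-Pearson) were made on how a gene's counts split between the libraries and then carried to the scale of the difference. These intervals cover counting error only and compare the libraries rather than the conditions. As each group was sequenced once, none of the differences could be held against replicates and p-values are not given.

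**Figure D1:**
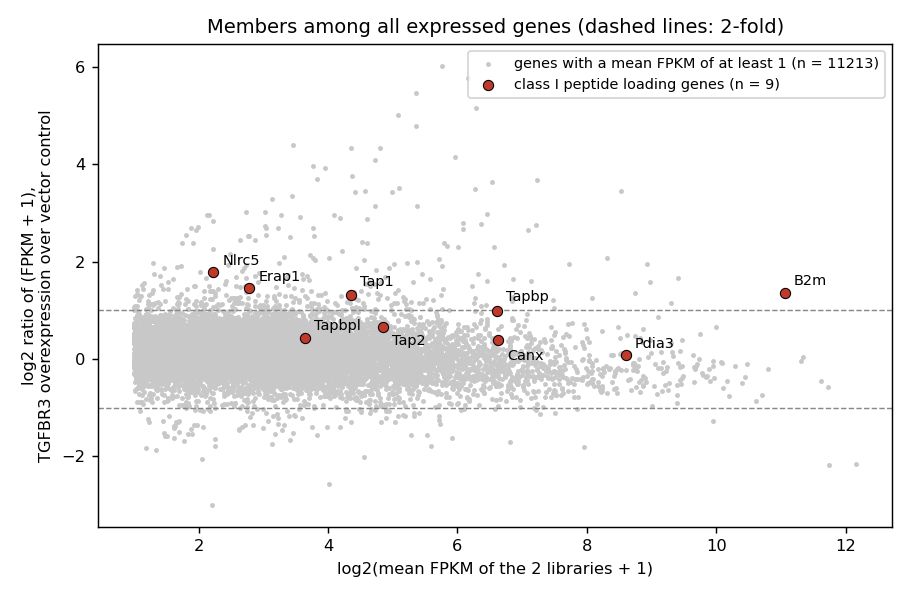
Log2 ratio of (FPKM + 1) against log2 of the mean FPKM plus 1 for the 11213 genes whose FPKM averaged 1 or more (grey points, 1 per gene) and for the 9 class I peptide loading genes (red points). Dashed lines mark 2-fold, above which Nlrc5, Erap1, Tap1 and B2m lie, while Tapbp lies just under the line and Pdia3 near 0.

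The libraries held 62321027 counts for TGFBR3 overexpression and 83779203 for the vector control. The overexpressed gene itself, Tgfbr3, was at FPKM 36.9 and 35.1, from 16372 and 21245 counts, a log2 difference of 0.07 (95% interval 0.04 to 0.10), or −0.06 after centring on the median gene. It therefore was not raised in the library that carries its name, and all directions here are those of the labels. The study also measured TGFBR3 by RT–PCR in transfected FAPs, but its text gives no values to set beside these. Genes that reached an FPKM of 1 in each library were shifted by a median of 0.13, which was subtracted to centre values. FAP markers were present, with Pdgfra at FPKM 30.5 and 32.6 and Ly6a at 1013 and 706, although Lum was at 0.27 and 0.03. Of the others, Col1a1 was at 467 and 870 (log2 difference −0.90, or −1.02 after centring), Cd34 at 20.6 and 25.7 (−0.30) and Dcn at 18.2 and 16.4 (0.14). None of these 6 markers was 2-fold changed before centring, Col1a1 was 2-fold lower after it, and Lum, from 45 and 8 counts, was 2-fold higher on the plain ratio. The 8 macrophage markers summed to FPKM 0.78 and 0.49, with Adgre1, Tyrobp and Fcer1g at 0 counts in both libraries. Csf1r had 182 and 210 counts, C1qb 20 and 0, C1qa 0 and 8, C1qc 7 and 4 and Ptprc 0 and 4. The 5 dendritic cell markers summed to 0.18 and 0.25, the 4 endothelial markers to 1.06 and 0.93 and the 3 muscle markers analysed here to 1.15 and 0.81, and the 2 T and NK cell markers analysed here had 0 counts, which allows up to 3. The endothelial sums hide opposite directions. Kdr had 262 and 65 counts (2.43 on the plain ratio), Pecam1 24 and 8, Cdh5 165 and 328 (−0.53) and Tie1 0 and 0. The 4 adipocyte markers summed to 34.8 and 68.0, and Adipoq and Cfd, which encode adiponectin and adipsin, were more than 2-fold lower, at −1.07 and −1.29. The other adipocyte markers differed less, with Plin1 at 1.15 and 1.98 (−0.47) and Fabp4 at 12.6 and 13.9 (−0.14). The part of these cell type differences in the values of the members was not tested. In bulk RNA, fewer cells of a type and less RNA per cell cannot be told apart.

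Nlrc5 encodes the class I transactivator, an NLR family protein that enters the nucleus and is recruited to the promoters of class I heavy chain, light chain and peptide processing genes. The gene lies at chr8:94434356-94527272 of mm10 on the plus strand. At FPKM 6.24 against 1.10, it was higher in the library labelled TGFBR3 overexpression than in the vector control, from 3598 and 870 counts. Nlrc5 was therefore the scarcest member in both libraries and the one with the largest ratio. The log2 difference was 1.79 (95% interval 1.72 to 1.85), and because the added 1 weighs on a gene this low, the plain ratio of FPKM was larger, at 5.67-fold (95% interval 5.27 to 6.12). By its log2 difference it ranked 97th of the 11213 genes. The other NLR genes examined differed less. Nod1, a sensor of bacterial peptidoglycan, was at FPKM 9.93 and 10.2 (log2 difference −0.03), Nlrx1 of the mitochondrion was at 4.38 and 4.83 (−0.12), and Nlrc3 and Nod2, both under 1 FPKM in the vector control, had log2 differences of 0.29 and 0.39, or 0.86 and 0.76 on the plain ratio, beside 2.504 for Nlrc5.

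CIITA, the class II counterpart of NLRC5, docks on the same promoter-bound proteins. Ciita was counted 8 times under the TGFBR3 overexpression label and 0 times under the vector label, where 0 allows up to 3. Of 7 class II genes including Ciita, none was 2-fold higher or lower and the median log2 difference was −0.03. H2-Ab1, a class II β chain, was lower, at FPKM 5.38 against 8.54, a log2 difference of −0.58 (95% interval −0.68 to −0.48), and H2-Aa, its α chain partner, had 0 counts in both. The 8 enhanceosome genes that the transactivators need (the RFX and NF-Y subunits, Creb1 and Atf1) had a median log2 difference of 0.13, which was 0.004 after centring and −0.10 without the GC trend. Their values ran from −0.10 in Rfxap to 0.42 in Rfx5. Thus the transcript of the transactivator was higher while those of its docking proteins stayed within 1.5-fold on this scale. On the plain ratio Creb1, at FPKM 1.10 and 0.70, was at 0.65 and so past 1.5-fold, beside 2.504 for Nlrc5.

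B2m encodes β2-microglobulin, the light chain shared by all class I heavy chains, and lies at chr2:122147686-122153083 on the plus strand, with 860 bases of exon. FPKM reached 3077 with the TGFBR3 overexpression label, against 1195 with the vector control label, from 179541 and 94974 counts. B2m had the highest FPKM of all genes in the first library and ranked 18th in the second. It took 0.288% of all counts in the first and 0.113% in the second. The log2 difference was 1.36 (95% interval 1.35 to 1.38) and the plain ratio 2.57-fold (95% interval 2.55 to 2.60). Only 41.2% of the bases of its longest transcript are G or C, and ratios in these libraries fell with GC content, from 0.42 for the median gene of the most AT-rich of 20 bins to −0.26 for the most GC-rich. With this trend removed, B2m was at 0.93, short of 2-fold.

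Promoter windows from 250 bases before to 50 bases after the RefSeq start site (build GRCm38.p6) were given for 6 of the 9 members: B2m, Tap1, Tapbp, Erap1, Pdia3 and Canx. They were searched on both strands for the interferon-stimulated response element (ISRE) as GAAANNGAAA, the gamma-activated site as TTCNNNGAA, the Y box as ATTGG and a κB site as GGGNNNNNCC. Over all 32851 windows in the table, the shares that hold these letters were 3.44%, 8.3%, 37.4% and 50.8%, respectively. The ISRE letters were found in the windows of B2m and Erap1, the gamma-activated site in none of the 6, the Y box in 5 and the κB letters in 3. The window of B2m is shown because it holds an ISRE match at −139 to −130 from the start site, a κB match just after it at −127 to −118, and a Y box at −53 to −49. Capitals mark the ISRE and Y box matches here and in the windows shown further on, and κB matches, found in about as many windows as not, are left in lower case.
B2m, chr2:122147437-122147736, strand plus: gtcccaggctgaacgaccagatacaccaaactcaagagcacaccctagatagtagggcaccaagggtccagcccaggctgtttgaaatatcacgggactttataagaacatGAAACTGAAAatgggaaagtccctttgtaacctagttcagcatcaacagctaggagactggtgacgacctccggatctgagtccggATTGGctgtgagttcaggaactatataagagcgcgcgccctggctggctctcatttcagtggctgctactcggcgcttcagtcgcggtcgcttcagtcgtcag
A match describes the letters in the window and says nothing of whether a factor was bound.

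**Figure D2:**
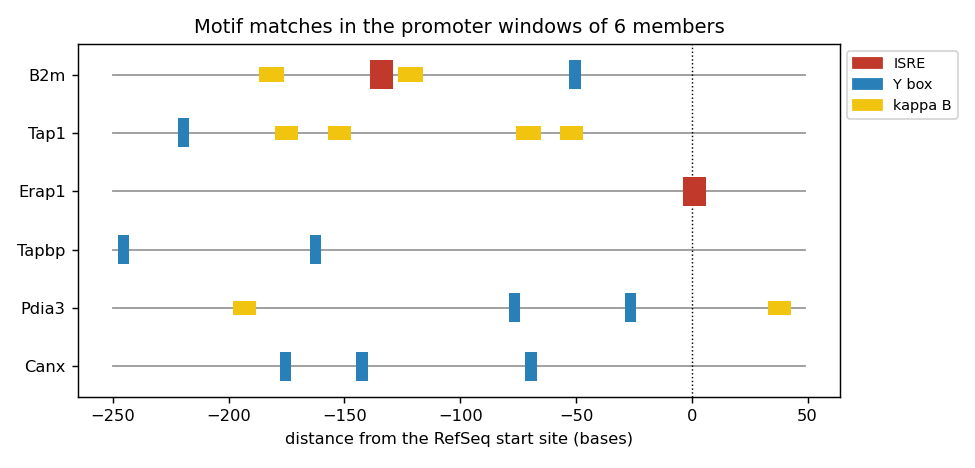
Matches to 3 motifs in the promoter windows of 6 members, by distance in bases from the RefSeq start site (dotted line at 0), with 1 line per gene and coloured blocks for the ISRE, Y box and κB letters. ISRE matches are seen in B2m and, across the start site, in Erap1, and none in Tap1, Tapbp, Pdia3 and Canx.

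Of the 8 class I heavy chain genes examined, 6 had a larger log2 difference than the light chain, and H2-T23 (1.12) and H2-M3 (0.12) had a smaller one. In all, 7 were at least 2-fold higher, with a median log2 difference of 1.78, and 6 of the 8 after centring, when H2-T23 was at 0.99. They ran from 0.12 in H2-M3 to 5.14 in H2-Q6. H2-K1 was at FPKM 774 and 199 and H2-D1 at 751 and 251. Summed over the 8 genes, heavy chain FPKM was 2316 and 629, and B2m over this sum was 1.33 under the TGFBR3 overexpression label and 1.9 under the vector label. Gains and falls of a gene relative to another are given as differences of the plain log2 ratios of FPKM, with no added 1. Relative to H2-K1, B2m fell by 0.60 on the plain log2 scale (95% interval −0.62 to −0.58), and relative to H2-D1 by 0.22 (95% interval −0.24 to −0.20). These differences do not depend on how the libraries are scaled, but they do depend on the GC trend. With that trend removed, B2m was at 0.93, H2-K1 at 1.96 and H2-D1 at 1.66, so that B2m lay further below both. H2-T23, at 1.12, was then also above B2m, and only H2-M3 (0.001) was below it. Heavy chain genes resemble each other in sequence, so their reads could have been shared out or dropped in the counting, whereas B2m shares none of its 31-base words with transcripts of other genes. Of 5 further class I-like genes, none was 2-fold changed and the median was 0.23, or 0.03 without the GC trend. Fcgrt, the neonatal Fc receptor, which also needs the light chain, was lower, at FPKM 70.4 and 94.0 (log2 difference −0.41), while Mr1, which presents vitamin B metabolites, was at 6.06 and 3.62 (0.61), Hfe at 8.88 and 7.40 (0.23) and Cd1d1 at 5.23 and 4.47 (0.19). Procr, which folds like a class I molecule but without the light chain, was at 48.2 and 27.6 (0.78).

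Tap1 and Tap2 encode the subunits of the peptide transporter and lie 6.3 kb apart on chromosome 17, at chr17:34187553-34197225 and chr17:34203527-34216321, both on the plus strand. Tap1 was at FPKM 28.1 under the TGFBR3 overexpression label and 10.7 under the vector label, from 10449 and 5438 counts. Its log2 difference was 1.31 (95% interval 1.27 to 1.36). Tap2 was at FPKM 34.4 and 21.5, from 8836 and 7519 counts, with a log2 difference of 0.65 (95% interval 0.61 to 0.70). Although the subunits work as a heterodimer, Tap1 transcripts were at 0.499 of the Tap2 level in the vector control and at 0.816 of it with TGFBR3 overexpression by the label. On the plain log2 scale Tap1 gained 0.71 over Tap2 (95% interval 0.65 to 0.78), which again does not depend on scaling. Tap1 and Tap2 have 0.825% and 1.34% of their 31-base words in common with other transcripts.

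The window of Tap1 is shown because Tap1 was past 2-fold yet holds no ISRE or gamma-activated site letters within it, and its Y box lies in the other orientation, at −222 to −218.
Tap1, chr17:34187306-34187605, strand plus: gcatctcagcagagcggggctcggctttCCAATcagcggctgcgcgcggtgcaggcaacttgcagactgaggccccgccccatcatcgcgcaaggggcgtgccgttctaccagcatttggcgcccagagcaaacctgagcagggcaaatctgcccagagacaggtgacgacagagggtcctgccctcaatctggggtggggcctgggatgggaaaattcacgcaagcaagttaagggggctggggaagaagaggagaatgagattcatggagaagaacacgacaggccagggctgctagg

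Immunoproteasome genes flank the transporter genes. Psmb9 overlaps Tap1 on the opposite strand and shares 212 bases of exon with it, and Psmb8 begins 495 bases after the end of Tap1 and ends 2072 bases before Tap2. Psmb8 was at FPKM 40.8 and 10.8 (log2 difference 1.83) and Psmb9 at 9.18 and 1.78 (1.87). Relative to Psmb9, Tap1 fell by 0.98 on the plain log2 scale (95% interval −1.12 to −0.84), and relative to Psmb8 by 0.53 (95% interval −0.60 to −0.46). Whether the counting used strand is not given, so the part of the reads from the shared 212 bases in the Tap1 and Psmb9 counts was not tested. Of the 5 immunoproteasome and activator genes, 4 were at least 2-fold higher, with a median of 1.26, and Psme2, at 0.72, was not. On the other side of Tap2, the next expressed gene was H2-Ab1, which was lower. Other ABC transporter genes of the same subfamily were not raised. Abcb9, a lysosomal peptide transporter, was at FPKM 0.89 and 1.07 (log2 difference −0.13), and the mitochondrial Abcb8 and Abcb10 were at −0.16 and −0.21. Over these 3 genes and the 4 NLR genes named above, none was 2-fold changed and the median was −0.12.

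Erap1 encodes the ER aminopeptidase that trims precursor peptides to the length that class I molecules hold. It lies at chr13:74639568-74693201 on the plus strand. At FPKM 9.11 against 2.68, it was higher in the library labelled TGFBR3 overexpression than in the vector control, from 4503 and 1803 counts. The log2 difference was 1.46 (95% interval 1.40 to 1.52), and the plain ratio was 3.40-fold (95% interval 3.22 to 3.59). Without the GC trend it was 1.03. Erap1 shares 834 bases of exon with Cast, the calpastatin gene on the opposite strand, which had 13336 and 12139 counts and a log2 difference of 0.54. Whether the counting used strand is not given in the sources used here, and without it reads from the shared bases cannot be told apart.

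The window of Erap1 is shown because its ISRE letters, on the minus strand, run across the start site, from −4 to 5.
Erap1, chr13:74639603-74639902, strand plus: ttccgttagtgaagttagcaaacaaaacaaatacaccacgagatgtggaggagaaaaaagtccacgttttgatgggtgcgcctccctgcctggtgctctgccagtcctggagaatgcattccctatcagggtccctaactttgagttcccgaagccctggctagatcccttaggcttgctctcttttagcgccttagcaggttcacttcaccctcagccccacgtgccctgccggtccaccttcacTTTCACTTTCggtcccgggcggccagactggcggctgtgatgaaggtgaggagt

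Outside the ER, peptides are cut further or destroyed by cytosolic peptidases. Of 7 peptidase genes, the endosomal Lnpep among them, none was 2-fold changed, and the median log2 difference was 0.37, or 0.04 without the GC trend. Tpp2, tripeptidyl peptidase 2, was the highest, at FPKM 6.37 and 3.82 (0.61), Lap3, leucine aminopeptidase, was at 30.4 and 23.4 (0.36), and Thop1, thimet oligopeptidase, was the lowest, at 8.54 and 10.2 (−0.22). Lnpep, the endosomal relative of Erap1, was at 4.91 and 3.58 (0.37). Erap1 gained 1.31 over Lnpep on the plain log2 scale (95% interval 1.21 to 1.41), so that it was below Lnpep in the vector control and above it in the other library.

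**Figure D3:**
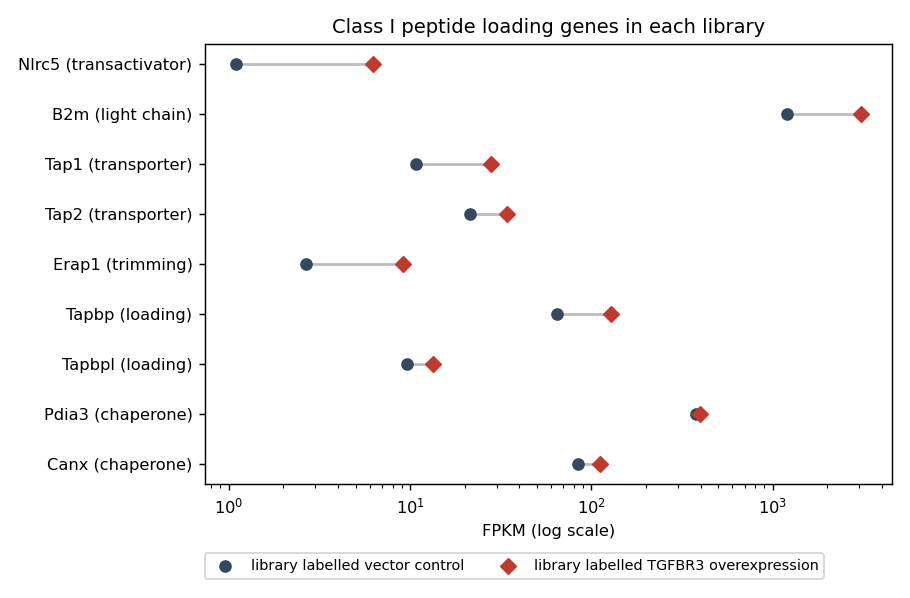
FPKM on a log axis for each of the 9 members in the library labelled vector control (circles) and the library labelled TGFBR3 overexpression (diamonds), joined by a grey line, with 1 library per group and so no error bars. B2m spans from 1195 to 3077 and Nlrc5 from 1.10 to 6.24, while the symbols of Pdia3 almost coincide.

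Tapbp encodes tapasin, which holds the empty class I molecule at the TAP transporter and edits its peptide. It lies at chr17:33915899-33929292, 258.3 kb from Tap1 on the same strand. FPKM reached 129 with the TGFBR3 overexpression label, against 64.8 with the vector control label, from 31635 and 21725 counts. The log2 difference was 0.98 (95% interval 0.95 to 1.002), so that the counting interval ended at 2-fold. Tapbp was at 1.05 when FPKM values were rescaled to a common sum and at 1.06 without the GC trend. It shares 149 bases of exon with Zbtb22 on the same strand, which was lower (log2 difference −0.28).

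Tapbpl encodes TAPBPR, the tapasin-related peptide editor that works apart from the TAP transporter. It lies at chr6:125223933-125231860 on the minus strand. Its FPKM was 13.3 and 9.57, from 2124 and 2079 counts, a log2 difference of 0.44 (95% interval 0.36 to 0.52). Tapasin transcripts were 9.66 times as abundant as those of Tapbpl under the TGFBR3 overexpression label and 6.77 times under the vector label, a gain of Tapbp over Tapbpl of 0.51 on the plain log2 scale (95% interval 0.42 to 0.60). Of the members, Tapbpl shared the largest part of its 31-base words with other transcripts, 5.21%.

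Pdia3 and Canx are general ER chaperones that class I molecules borrow. Pdia3 encodes ERp57, a thiol oxidoreductase that is joined to tapasin by a disulphide bond in the loading complex. It lies at chr2:121413775-121438687, 709.0 kb from B2m. Its FPKM was 398 and 376, from 84748 and 109085 counts. The log2 difference was 0.08 (95% interval 0.07 to 0.09), with a direction that turned with scaling, to −0.045 after centring and −0.19 without the GC trend. Tapasin transcripts accordingly went from 0.172 of the Pdia3 level in the vector control to 0.323 of it in the other library. B2m, on the same chromosome, gained 1.28 over Pdia3 on the plain log2 scale (95% interval 1.27 to 1.30).

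Canx encodes calnexin, a lectin that binds newly made heavy chains. It lies at chr11:50293961-50325673 on the minus strand. Its FPKM was 111 and 84.2, from 35368 and 36530 counts, a log2 difference of 0.40 (95% interval 0.37 to 0.42). With 42.2% of G and C in its longest transcript, Canx was at 0.01 without the GC trend. Tapbp and Canx were the only neighbouring members whose order of level differed between the libraries, with Canx above Tapbp in the vector control and below it in the other. In both libraries the order of the rest was B2m, Pdia3, these genes, Tap2, Tap1, Tapbpl, Erap1 and Nlrc5, and the exact Poisson intervals of neighbouring members did not overlap within a library.

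The window of Pdia3, the member with the smallest difference, is shown as well. It holds Y boxes at −79 to −75 and at −29 to −25 and, like that of Tap1, no ISRE or gamma-activated site letters.
Pdia3, chr2:121413652-121413951, strand plus: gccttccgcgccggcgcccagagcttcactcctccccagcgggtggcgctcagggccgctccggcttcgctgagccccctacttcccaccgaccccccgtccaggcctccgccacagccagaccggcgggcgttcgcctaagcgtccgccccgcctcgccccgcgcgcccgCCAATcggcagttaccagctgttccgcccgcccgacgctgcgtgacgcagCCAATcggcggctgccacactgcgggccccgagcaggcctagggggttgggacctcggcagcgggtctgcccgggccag

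Other ER folding genes did not share the higher values of the loading genes. Of 12 such genes, none was 2-fold changed, 9 were lower, and the median log2 difference was −0.34, or −0.47 after centring. Calr, which encodes calreticulin, the soluble lectin of the loading complex, was at FPKM 482 and 698 (log2 difference −0.53, 95% interval −0.54 to −0.52). Canx thus gained 0.93 over Calr on the plain log2 scale (95% interval 0.91 to 0.96). Uggt1, the glucosyltransferase that returns unfolded glycoproteins to the lectins, was at 9.63 and 13.5 (−0.45). The oxidoreductases P4hb and Pdia6 were at 553 and 798 (−0.53) and at 83.4 and 143 (−0.77), and Pdia3 gained 0.61 over P4hb on the plain log2 scale (95% interval 0.59 to 0.63). Without the GC trend the gains of Canx and Pdia3 were smaller. Canx was then at 0.01 and Calr at −0.665, and Pdia3 was at −0.19 and P4hb at −0.53. Hspa5, the Hsp70 chaperone BiP of the ER, was at 225 and 286 (−0.34). Of 10 genes for sorting and export from the ER, none was 2-fold changed, and the median was 0.04, which turned to −0.09 after centring and −0.22 without the GC trend. They ran from −0.37 in Sar1a to 0.58 in Sar1b, which both encode the GTPase of COPII coats.

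**Figure D4:**
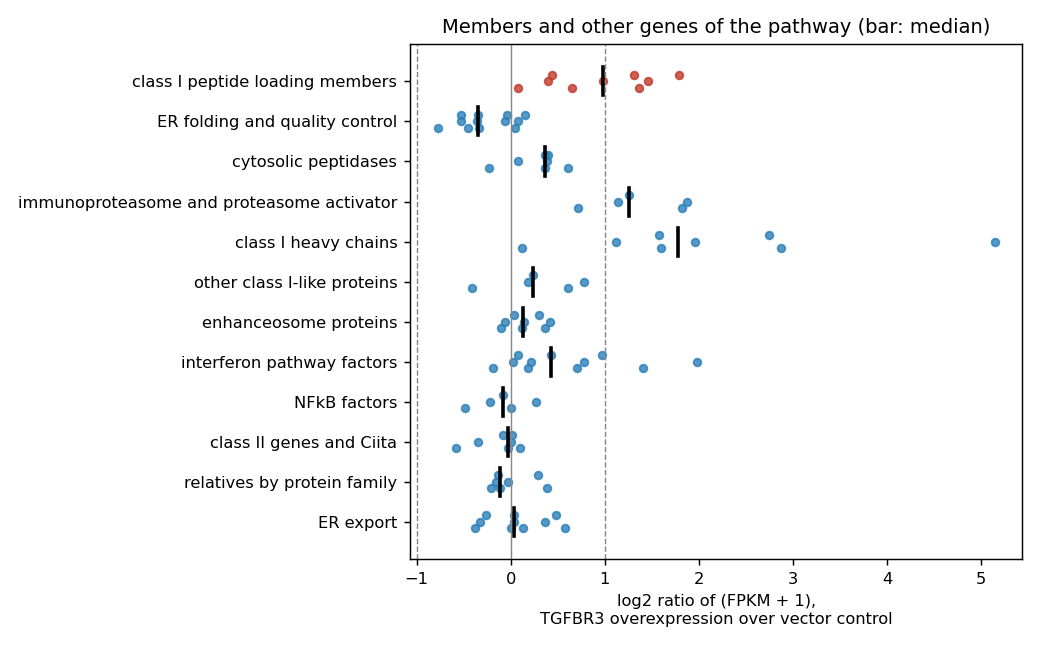
Log2 ratio of (FPKM + 1), TGFBR3 overexpression over vector control, for the 9 members (red) and for the genes of 11 other lists of the pathway (blue), 1 point per gene, with a black bar at each median and dashed lines at 2-fold. Heavy chain and immunoproteasome genes lie to the right with the upper members, and ER folding genes lie mostly below 0.

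Upstream factors of the interferon pathway were also uneven. Stat2, a transcription factor of the type I interferon response, was at FPKM 48.5 and 17.6 (log2 difference 1.41, 95% interval 1.38 to 1.45). Irf9, its partner at ISREs, was at 26.8 and 13.2, a log2 difference of 0.97 (95% interval 0.93 to 1.01), and Irf1, which is known to act on class I promoters, was at 18.03 and 10.6 (0.71). The receptor chains Ifngr1, Ifngr2, Ifnar1 and Ifnar2 lay between −0.19 and 0.22. Of 5 NFκB genes, none was 2-fold changed, with a median of −0.08, and Rela was at 36.6 and 36.4 (0.01) and Relb at 5.86 and 8.57 (−0.48).

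Across the 2 libraries, likeness of pattern can only be read as likeness of the log2 difference. Among the 11213 genes, the nearest to Nlrc5 were Trim12a above (1.81) and Gbp7 below (1.78), to Erap1 Trim34a (1.46) and Serpinb9g (1.44), to B2m Crct1 (1.36) and Cavin2 (1.36), and to Tap1 Pik3c2a (1.31) and Zcchc10 (1.31). Trim12a, Trim34a and Gbp7 belong to families that interferons induce, while Serpinb9g and the genes nearest to B2m and Tap1 were not placed in such families here.

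**Figure D5:**
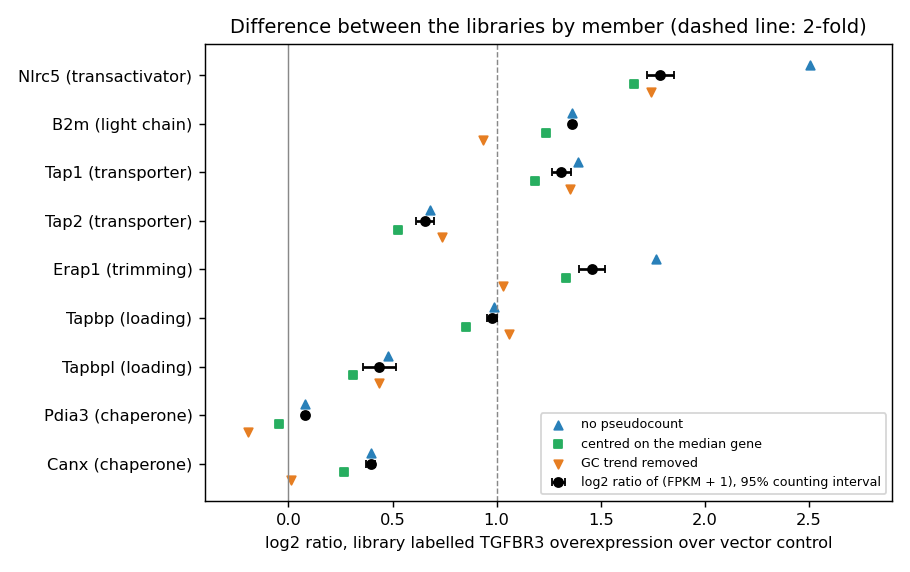
Log2 ratio of (FPKM + 1) for each member (black circles, with the 95% counting interval), the plain log2 difference of FPKM (triangles up), the value after centring on the median gene (squares) and the value with the GC trend removed (triangles down), with a dashed line at 2-fold. Nlrc5, Erap1 and Tap1 lie past the line on all 4 scales, B2m falls to 0.93 and Tapbp moves to 1.06 with the GC trend removed, and Pdia3 lies on both sides of 0.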

How the data were processed

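Total RNA of 1 library per group was sequenced as paired reads of 150 nt after poly(A) selection, and the second strand was marked with dUTP per the labels. The study's methods name STAR and FeatureCounts on mm10, whereas the submitters' processing notes name cutadapt 1.9, HISAT2 2.2.1, StringTie 2.1.6, DESeq2 and edgeR with no roles. The annotation release is not given in the sources used here. In the deposited files the authors gave raw counts, one per gene, next to FPKM values that keep 2 decimals. The labels and the study's methods also differ on the library kit.

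Here the main measure was log2 of (FPKM + 1), TGFBR3 overexpression over vector control, with no test, since each group has 1 library. It was computed for all 26082 genes, and counts gave the exact Clopper-Pearson and Poisson intervals at the 95% level. Values of a gene relative to another are differences of plain log2 ratios of FPKM, without a pseudocount, with a normal-approximation interval from the 4 counts. Whether molecular identifiers were used is not given, and reads without them are not independent molecules, so all intervals cover counting error only. The floor was 3 counts and the threshold 2-fold. The design had been written for FPKM alone, which stayed the main measure once counts were found beside it. Positions, exon lengths, overlaps, transcript GC content and shared words of 31 bases came from GENCODE M21 on mm10, which holds 99.7% of the gene identifiers, and promoter windows came from RefSeq on GRCm38.p6. Scripts ran in Python 3.11.15 with pandas 2.3.3 and SciPy 1.17.1 and were tested on simulated counts. The members, lists, motifs and alternatives were chosen with earlier results of these data known. Named genes are the members, Tgfbr3, genes of the 11 lists and 7 marker lists, and the nearest genes in log2 difference. Pairs set against each other and genes named for their position were chosen after the values were seen. Nrdc was found as Nrd1, and Azgp1, Cd3e, Cd3g, Cd8a, Ncr1, Pax7 and Myod1 were not analysed here. Protein sequences were not used here. The summary of the interferon factor list is not reported here.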

Additional observations from a re-analysis of the deposited data

How the results depend on the processing

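Each group is 1 library, so nothing here has a replicate check, and no paired analysis was possible because there is no second library in either group. Of 90 member values under 10 alternatives (pseudocounts of 0.1, 0.01 and none, a filter on FPKM, centring, 2 rescalings, CPM from the counts, and removal of the trends over GC content and exon length, the last 2 chosen after seeing the data), 87 kept their direction, and the other 3 were Pdia3 after centring (−0.045), without the GC trend (−0.19) and without the exon length trend (−0.012). A change of pseudocount or the filter cannot turn a direction, so only the other alternatives could have done so. The count of members at least 2-fold higher was 4 or 5 under these alternatives, but with the GC trend removed the 4 held Tapbp (1.06) in place of B2m (0.93). It was 6 at 1.5-fold and 0 at 4-fold, although Nlrc5 passed 4-fold with smaller pseudocounts (2.40 and 2.49), with none (2.504) and with CPM (2.37). The median over the members was 0.98, and moved to 0.85 after centring, 1.05 with FPKM rescaled to a common sum, 0.93 without the GC trend and 0.87 without the exon length trend, and the cause was not tested. Nlrc5 ranged from 1.51 to 2.504, Erap1 from 1.03 to 1.77, Tap1 from 1.13 to 1.39 and Canx from 0.01 to 0.47. Of 44 list counts under centring or without a pseudocount, 0 moved past 1.5 times, and of 22 list medians the median of ER export genes changed sign. Most of these list counts were 0 in the main setting, which left them little room to move, and they were not made without the GC trend. Without the GC trend the medians of ER export genes (−0.22) and enhanceosome genes (−0.10) were below 0. Ciita, at 8 and 0 counts, is too scarce for a ratio at this depth.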

Other observations

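An antisense transcript moved with that of the transactivator. 9330175E14Rik, a long noncoding RNA gene on the strand opposite to Nlrc5, shares 78 bases of exon with it and was counted 562 times under the TGFBR3 overexpression label and 118 times under the vector label, which are FPKM values of 1.39 and 0.21. Its log2 difference was 0.98 (95% interval 0.91 to 1.05), and without the added 1 it was 2.73, beside 2.504 for Nlrc5. Whether the counting used strand is not given, so the part that reads from Nlrc5 have in these counts was not tested.

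The nearest expressed genes by position, chosen after the values were seen, mostly differed less than the members they flank. Beside B2m, Spg11 was at FPKM 6.67 and 3.79 (log2 difference 0.68) and Sord at 25.1 and 20.2 (0.30). Beside Tapbp, Daxx, which ends 308 bases away, was at 24.1 and 13.7 (0.78) and Zbtb22 at 8.32 and 10.3 (−0.28). Beside Nlrc5, Cpne2 was at 26.0 and 19.8 (0.38), and the pseudogene Ap3s1-ps2 had 101 and 32 counts (1.16). Serf2, beside Pdia3, was lower, at 54.9 and 85.8 (−0.64). Larger log2 differences than that of the member itself were seen for Psmb8 and Psmb9 beside Tap1, Psmb8 beside Tap2 and Hnrnph1 beside Canx (0.48 against 0.40), and Serf2 differed more in size than Pdia3.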
